A study of Mus musculus with 39 samples.

Results

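The defensin genes of the mouse were placed on the domains of nucleosome wrapping and of replication timing of mouse embryonic stem (ES) cells. The members were the protein-coding genes of the GENCODE annotation of mm10 on chromosomes 1 to 19 with symbols starting with Defa or Defb, and there were 64 of 20807 protein-coding genes, with 22 alpha-defensin and 42 beta-defensin genes. Genes under 500 kb apart were joined, which gave 5 clusters, numbered here along the genome.

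Defensins are small cationic peptides with disulfide bonds that kill or inhibit microbes. In the mouse, alpha-defensins, also called cryptdins, are made by Paneth cells at the base of the crypts of the small intestine under Wnt signalling through TCF4, and the matrix metalloproteinase Mmp7 cuts their precursors to the active form. Beta-defensins are made by epithelia of the airways, skin, kidney and mouth and, for many members, by the epididymis, where some coat maturing sperm, and several attract immune cells through the receptor Ccr6.

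All data came from R1, a line of wild-type ES cells derived from the inner cell mass, grown with leukemia inhibitory factor and given no drug. Wrapping was measured by wrapping-seq of histone H3, in which crosslinked chromatin is digested with MNase, H3-bound fragments are sequenced and the balance of longer to shorter fragments is taken as a measure of how tightly DNA is wrapped on the nucleosomes, to which other factors may contribute, with 4 libraries from 2 experiments. Replication timing (RT) was measured on BrdU-labelled DNA of cells sorted by their progress through S phase into 4 fractions (S1, S2, S3 and S4), with 2 replicates of each, 8 libraries in all. The lists hold no expression values, so the cell type could not be checked against markers.

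Of the deposited data, 1 list of domains was used for each measurement, and tracks of values along the genome or for each replicate were not analysed here. A nucleosome wrapping domain (NRD) is a run of 100 kb bins whose nucleosome wrapping index (NRI), a z-score over the genome, stays on 1 side of 0. Positive NRDs are tightly wrapped (TiNRDs) and negative ones loosely wrapped (LoNRDs). The RT domain list, on a grid of 50 kb, gives a log2 ratio of early to late fractions, above 0 for early and below 0 for late replication. Each list holds 1 value for each domain and no replicates or read depth, so the values below have no error, and neighbouring genes that share a domain share 1 measurement. Each gene was assigned by its midpoint, and a gene between domains has no call. The NRD list used here held 1243 domains. The study's text counts more NRDs than this list holds, and the reason is not known, so no call says only that no domain of this list covers the gene. Counts are given beside those of all 20807 genes and were not tested.

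By wrapping, the counts over all members were near those of all genes, apart from the genes with no call. TiNRDs held 48 of 64 members (75%, against 78.6% of all genes), LoNRDs held 12 (18.8%, against 20.3%), and 4 had no call (against 1.09%). This nearness rested on cluster 4, the largest, on chromosome 8, which had no loose gene. Without it 37.5% of 32 members were loose. With NRDs of at least 500 kb alone 3.12% of 64 were, against 18.7% of all genes. By timing the counts stood further from those of all genes. Late RT domains held 39 members (60.9%, against 21.4% of all genes), early domains held 23 (35.9%, against 75.3%), and 2 had no call (against 3.26%). With both lists, 28 members were tight and late (43.8%, against 7.49%), 20 were tight and early (against 69.4%), 7 were loose and late (10.9%, against 13.5%) and 3 were loose and early (against 5.33%). The late share came mostly from cluster 4, which held 32 of the 39 late genes and all 28 that were tight and late. Among the 32 genes of the other clusters, 21.9% were late and none was tight and late. The 39 late genes lay in only 2 RT domains, both with a value closer to 0 than the median absolute value of the list, 0.72, as were 48.6% of late domains. Such domains held 44.9% of all late genes.

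The calls of the alpha and beta families were unlike. All 22 alpha-defensin genes were late, 18 of them in a TiNRD and 4 with no NRD call, and they all lay in 1 RT domain. The 42 beta-defensin genes were spread over all 5 clusters and over all 4 combinations of calls. Of them, 20 were tight and early (47.6%, against 69.4% of all genes) and 10 tight and late (23.8%, against 7.49%). Another 7 were loose and late (16.7%, against 13.5%), 3 loose and early (7.14%, against 5.33%) and 2 loose with no RT call (4.76%, against 1.45%). All 10 tight and late beta-defensin genes lay in cluster 4, in the RT domain of the alpha-defensin genes. All 12 defensin genes of LoNRDs were thus beta-defensin genes.

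**Figure D1:**
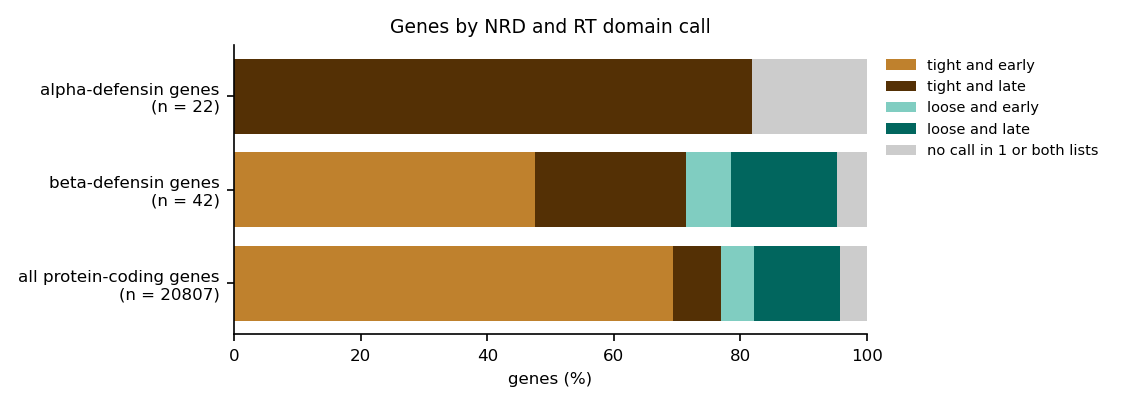
Share of genes (x axis, percent) by their NRD call and RT domain call together, for 22 alpha-defensin, 42 beta-defensin and all 20807 protein-coding genes. The tight and late part takes 18 of 22 alpha-defensin genes, 10 of 42 beta-defensin genes and 7.49% of all genes.

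Cluster 4, at chr8:20892669-21948850, held 32 of the 64 members in a span of 1056 kb, namely all 22 alpha-defensin genes and 10 beta-defensin genes. It began with the beta-defensin gene Defb33, in a TiNRD of value 1.33. Then came Defa21, Defa23, Defa35 and Defa25, in a gap of the NRD list between 21000001 and 21100000. The next 27 genes, from Defa30 to Defb13, lay in a TiNRD of value 0.61. They included Defa2, the lowest-numbered alpha-defensin gene, and Defb1, an epithelial beta-defensin gene that is made without an inflammatory stimulus. The cluster thus crossed 2 TiNRDs and the gap between them.

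A single late RT domain, at chr8:20850001-22000000, held all 32 genes, with a log2 value of -0.35. The list gives 1 value for the domain, so differences in timing within the cluster cannot be seen. It started 43 kb before the first gene of the cluster and ended 51 kb after the last. The domain on its right was early, with a value of 0.85. On its left, a gap of 50 kb in the list set it apart from another late domain, of -0.20. That gap overlapped an unassembled stretch, at chr8:20712179-20812178. Only the right end was a border between late and early. As listed, the late domain with the cluster was little longer than the cluster. The TiNRD with most of its genes went on for 5551 kb beyond Defb13 and measured 6.40 Mb in all. How much of its value of 0.61 came from the cluster itself cannot be read from the domain list. Of the 102 protein-coding genes of this TiNRD, 27 were defensin genes. The late value was a small one, since the absolute value was lower in only 11.2% of the 849 late domains of chromosomes 1 to 19.

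Regions that were tight and late at once made up 11.7% of the length of chromosomes 1 to 19, and 1558 genes lay in 458 such stretches. Ordered by number of genes, the stretch with most of cluster 4, at chr8:21100001-22000000, came 4th, with 34 protein-coding genes in 0.90 Mb. Its 27 defensin genes were most of its genes. Defb33 lay in a separate stretch with 4 genes.

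On the left, the nearest protein-coding gene without a Defa or Defb symbol was Gm21119, 252.0 kb away, tight and late (1.33 and -0.20). On the right it was Fam90a1a, 9.9 kb away, tight and late as the cluster was (0.61 and -0.35). Inside the span the annotation had 9 more protein-coding genes and 13 defensin pseudogenes. Of the 9 genes, 6 overlapped genes that RefSeq calls Defa38 to Defa43, such as Gm14851, which overlapped Defa38, and all 6 were late. With the RefSeq annotation there were 71 defensin genes, 29 of them alpha, and 64.8% were late.

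**Figure D2:**
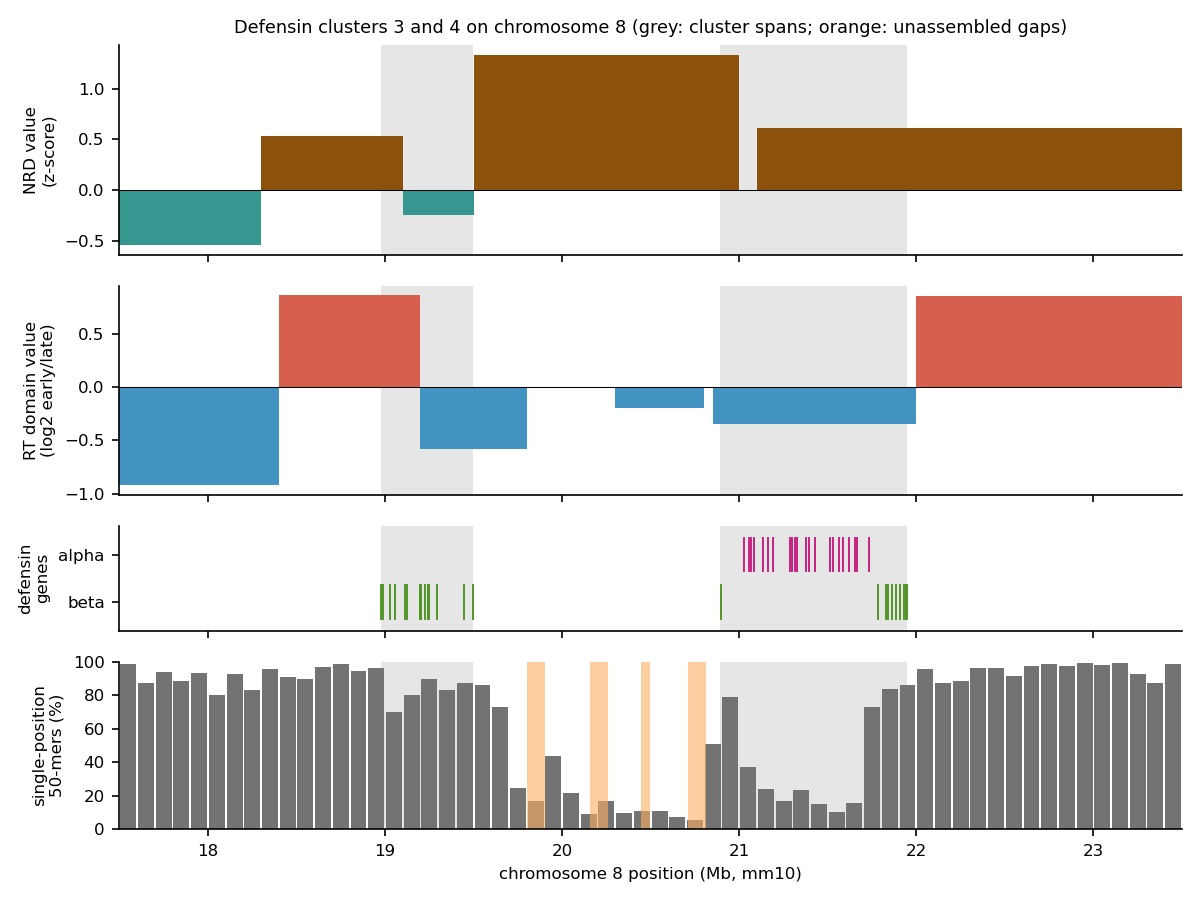
Map of chromosome 8 in Mb (mm10) with, from top to bottom, the value of each NRD (z-score), the value of each RT domain (log2 early/late), the midpoints of alpha- and beta-defensin genes, and the percent of 50-mers in each 100 kb bin that occur once in the assembly. Grey bands are the spans of clusters 3 and 4, orange bands are unassembled gaps, and blank stretches of the upper panels have no domain. The late domain of -0.35 is little longer than the span of cluster 4. Its left end is at a gap of the list, beyond which lies another late domain. The share of single-position 50-mers is low in the part of cluster 4 with most alpha-defensin genes and to the left of the cluster. It is higher in the bins with the beta-defensin genes of the cluster, from 50.69% to 86.24%.

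Near-identical copies limit what short reads can measure in this cluster. The genes and shares given here are those of the mm10 assembly. Whether R1 cells carry the same copies was not tested. A read from a stretch that occurs more than once in the genome gets a low mapping quality, and the authors kept reads above a minimum mapping quality. The libraries were sequenced from both ends with reads of over 100 bases. More of the fragments longer than 100 bases may thus be placed than the shares of 50-mers and 100-mers show. The wrapping index also counts shorter fragments, to which this does not apply. Whether shorter and longer fragments were kept unequally here was not tested. Over the span of cluster 4, 40.4% of 50-mers and 56.2% of 100-mers occurred only once in the assembly (single-position k-mers). Of 482 bins of 100 kb spread over chromosomes 1 to 19, with a median of 92.5%, only 10 had a lower share for 50-mers. The left flank of 500 kb had a share of 17.7%, with 30.0% of its length unassembled, and the right flank had 91.8%. The TiNRD to the left, which holds Defb33 and whose value was higher than those of 98.9% of TiNRDs, was 23.3% unassembled.

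The alpha-defensin genes themselves had low shares too, much like the 100 kb bins around most of them. The share of single-position 50-mers in the gene body ranged from 0.00% to 77.10% in Defa24, with a median of 12.66%. For 100-mers the median was 28.07% and the highest share 98.67%. For 50-mers it was 0.00% in Defa2, Defa5, Defa33 and Defa20. In the 10 beta-defensin genes of the same cluster it ranged from 57.54% in Defb35 to 99.99% in Defb50, with a median of 87.53% (96.99% for 100-mers). Inside most alpha-defensin genes few 50-mers can thus be placed, and a domain call covers them together with the DNA between the genes. Of the 22 bins of 100 kb that hold defensin genes, 7 had a share under 50%, and these held 21 of the 22 alpha-defensin genes and no beta-defensin gene. Without the genes of those bins, 41.9% of 43 members were late and 25.6% were tight and late. What low mappability does to the domain values was not tested.

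The likeness of the copies extended to the bases before the genes. RefSeq promoter sequences (GRCm38.p6) were at hand for 41 of the 64 members, 12 alpha and 29 beta. Over the 250 bases before the start, 66 pairs of alpha-defensin genes were from 49.8% to 100% identical in a global alignment, with a median of 78.3%. Gaps counted as unequal bases, so annotated starts at unlike places lower the identity of otherwise similar sequences. Defa2 and Defa36, at 79.6%, are such a pair. The identity of unrelated sequences was not computed. The bases were equal in 4 of these pairs, Defa2 with Defa20, Defa21 with Defa22, Defa23 with Defa31, and Defa36 with Defa37. In 348 pairs of an alpha- and a beta-defensin gene the median was 50.3%, and in 406 pairs of beta-defensin genes it was 50.2%. The most alike beta-defensin pair was Defb3 with Defb8 in cluster 3, at 86.7%. In each cluster with at least 5 beta-defensin genes that have a promoter sequence, the median of beta pairs was 63.1% in cluster 3 and between 49.7% and 50.1% in clusters 2, 4 and 5. Promoters equal over these 250 bases were thus found among alpha-defensin genes alone.

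The following windows run from base 120 to base 21 before the start on the strand of the gene. They show 2 of the equal alpha pairs, Defa30, the first alpha-defensin gene with an NRD call, and the most alike beta pair. They were chosen after the identities were seen. Capitals mark TATAAA, the core of a TATA box, and CTTTGA, a motif of TCF factors, each searched on both strands (TTTATA and TCAAAG on the other strand).
Defa2, chr8:21378397-21378496, plus strand: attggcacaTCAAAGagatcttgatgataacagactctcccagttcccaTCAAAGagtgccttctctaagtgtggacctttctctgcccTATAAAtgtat
Defa20, chr8:21509138-21509237, plus strand: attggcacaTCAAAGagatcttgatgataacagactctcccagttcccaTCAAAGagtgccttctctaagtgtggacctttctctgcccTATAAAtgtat
Defa36, chr8:21427308-21427407, plus strand: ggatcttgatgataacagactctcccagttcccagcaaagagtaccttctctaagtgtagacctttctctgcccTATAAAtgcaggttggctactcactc
Defa37, chr8:21565266-21565365, plus strand: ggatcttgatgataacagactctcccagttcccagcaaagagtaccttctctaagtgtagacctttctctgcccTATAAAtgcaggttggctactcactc
Defa30, chr8:21134530-21134629, plus strand: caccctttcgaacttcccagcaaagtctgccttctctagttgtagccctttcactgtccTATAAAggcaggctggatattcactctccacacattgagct
Defb3, chr8:19293241-19293340, plus strand: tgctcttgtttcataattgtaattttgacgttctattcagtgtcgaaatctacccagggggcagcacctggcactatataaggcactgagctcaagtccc
Defb8, chr8:19447627-19447726, minus strand: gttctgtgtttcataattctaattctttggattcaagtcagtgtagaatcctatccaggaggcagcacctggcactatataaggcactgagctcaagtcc
In the whole 250 bases, TATAAA was found in 11 of 12 alpha-defensin promoters, in 5 of 29 beta-defensin promoters and in 12.4% of 31396 RefSeq promoters of chromosomes 1 to 19. Only exact matches were counted. Similar bases, such as tatataa in the windows of Defb3 and Defb8, were not. CTTTGA was found in 12 of 12 alpha-defensin promoters, 8 of 29 beta-defensin promoters and 13.8% of all. Many of the alpha-defensin promoters are near-copies of each other, so these counts are not independent, and a match is a description, not a site or a cause.

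Cluster 3, at chr8:18974940-19497775, held 14 beta-defensin genes in 523 kb and was the only cluster divided by borders of both lists between domains of opposite sign. From the left, Defb40, Defb37, Defb38 and Defb39, genes known from the epididymis, were tight and early, with values of 0.53 and 0.86. Defb12, Defb34 and Defb14 were loose and early, with values of -0.24 and 0.86. The remaining 7 genes, from Defb4 to Defb7, were loose and late, with values of -0.24 and -0.58. They included Defb3, the lowest-numbered gene of the cluster, which is induced in airway epithelia by infection. Along this cluster both values thus went from positive to negative, with the listed NRD border 100 kb before the RT border. The authors called NRDs on values smoothed over several bins of 100 kb. The order of these borders thus cannot be told.

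The NRD border lay at 19100000, 35.2 kb after Defb39 and 11.9 kb before Defb12. The RT border at 19200000 lay inside Defb4, whose midpoint was 125 bp past it. By its transcription start Defb4 would be early, which makes 38 late members in place of 39. The borders are placed on grids of 100 and 50 kb, and NRDs were called on smoothed values. The calls of Defb4 and of genes as close to a border as Defb14, at 5.2 kb, are thus uncertain. The LoNRD with these 10 genes was 400 kb long, where the shortest NRD of the list was 300 kb, and ended 2.2 kb after Defb7. Its absolute value was larger than in only 24.0% of LoNRDs. With NRDs of at least 500 kb alone, 2 members were left in LoNRDs (3.12%, against 18.7% of all genes).

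Spag11a and Spag11b, which encode secreted epididymal proteins with beta-defensin-like forms, lay inside cluster 3 and were loose and early (-0.24 and 0.86). To the left, the nearest protein-coding gene was Xkr5, 24.0 kb away, tight and early (0.53 and 0.86). To the right it was 4930467E23Rik, 231.8 kb away, tight and late (1.33 and -0.58). Single-position 50-mers made up 82.7% of the span and 56.8% of the right flank, which was 20.0% unassembled.

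Cluster 2, at chr2:152459055-152623053, held 11 beta-defensin genes in 164 kb, from Defb23 to Defb25, with Defb19 as the lowest-numbered. This group is expressed in the male reproductive tract, and Defb22 is known as a coat protein of sperm. All 11 were tight and early, with values of 1.00 and 1.43. The TiNRD, of 9.40 Mb, had a value above those of 91.4% of TiNRDs, and the early domain, of 8.05 Mb, above those of 95.3% of early domains. The nearest genes, 6820408C15Rik 14.7 kb to the left and Rem1 3.9 kb to the right, lay in the same domains, as did the whole of both flanks. Here the cluster could not be told from its surroundings, and 96.8% of its 50-mers had a single position.

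Cluster 5, at chr14:62977524-63058149, held Defb48, Defb47, Defb43, Defb30 and Defb42 in 81 kb, with Defb30 as the lowest-numbered. All 5 were tight and early, with values of 0.68 and 0.81. The early domain began 478 kb left of Defb48, after a late domain of -0.42. Wdfy2, 16 kb to the left, and Ctsb, which encodes the protease cathepsin B, 64.3 kb to the right, had the same calls. As in cluster 2, the genes shared the state of long domains with many other genes, and the TiNRD had 94 protein-coding genes, 5 of them defensin genes.

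Cluster 1, at chr1:18236473-18265138, held only Defb18 and Defb41, both known from the epididymis. They were loose, with a value of -0.74, in a LoNRD of 3.70 Mb with only 10 protein-coding genes. They had no RT call, because they lay in the gap between a late domain of -0.17 that ended at 18200000 and a late domain of -0.56 that began at 18300001. Late domains covered 92.7% of the left and 93.0% of the right flank. The nearest genes were Crisp4, also of the epididymis, 90.6 kb to the left, and Tfap2d, 837.9 kb to the right, both loose and late. Cluster 1 was thus the only one with a loose call throughout its span and both flanks.

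**Figure D3:**
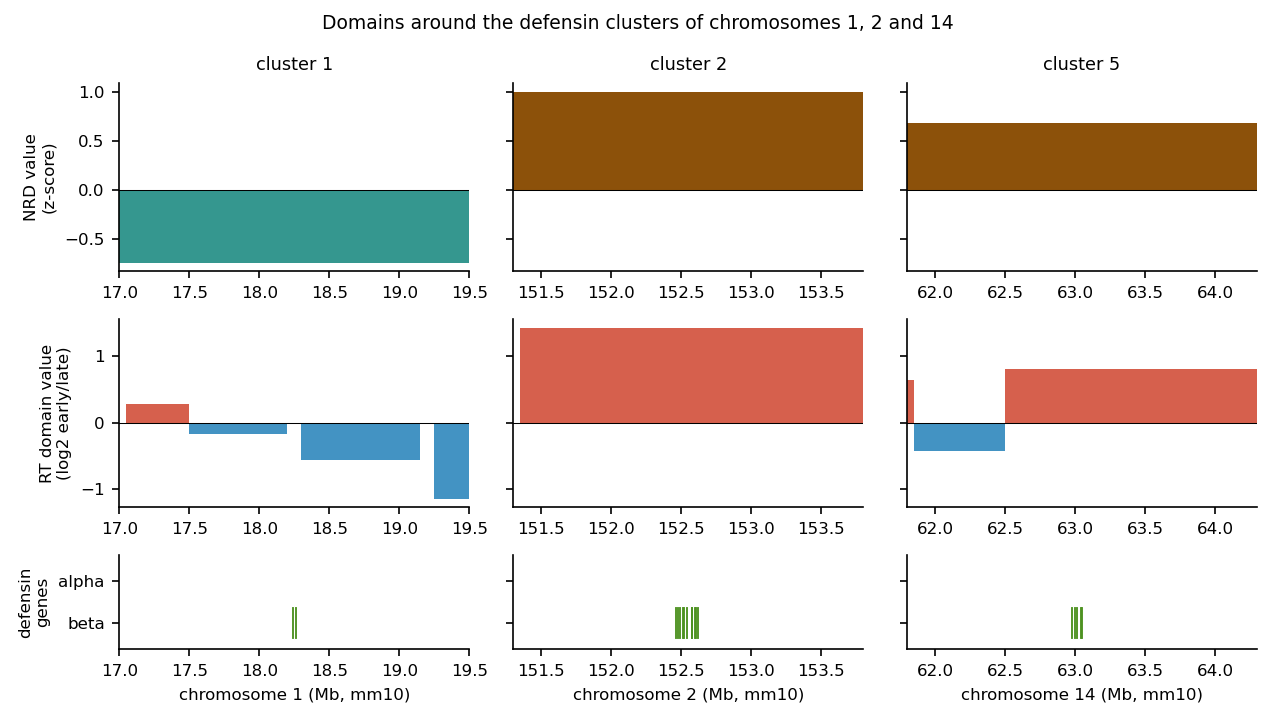
Maps of clusters 1, 2 and 5 in Mb of chromosomes 1, 2 and 14 (mm10), with the value of each NRD (z-score), the value of each RT domain (log2 early/late) and the midpoints of the defensin genes. Cluster 1 lies in a LoNRD of -0.74 and in a gap between late domains, and clusters 2 and 5 lie in TiNRDs of 1.00 and 0.68 and in early domains of 1.43 and 0.81.

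By length, the 5 spans together measured 1852 kb, of which 71.6% was tight and 23% loose, and 25.4% early and 73.1% late. In the 10 flanks of 500 kb, 80.0% was tight and 20.0% loose, and 58.5% early and 35.1% late. Over chromosomes 1 to 19, 51.1% of the length was tight, 45.5% loose, 45.5% early and 50.5% late. These totals weight the spans by length, 1056 kb of it in cluster 4, and the flanks equally. Cluster by cluster, 0% of the spans of clusters 1, 2 and 5 was late, and cluster 1, with no RT call, had late flanks. In cluster 3, 57% of the span was late, with 0% of the left and 60.4% of the right flank. In cluster 4, 100% of the span was late, with most of the left flank and 10.2% of the right flank. Clusters 3 and 4 thus stood at either end of a stretch of chromosome 8 made up of late domains and gaps of the list, with early DNA outside it.

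A/T content is a property of the sequence that differs between NRD kinds. Bins of 100 kb had a median A/T content of 55.6% in TiNRDs and 61.4% in LoNRDs, and of 57.1% where they were tight and late. The A/T content was 54.8% in cluster 2, 56.8% in cluster 5, 59.3% in cluster 3, 59.8% in cluster 4 and 64% in cluster 1. The tight and early clusters 2 and 5 were thus lowest and the loose cluster 1 highest, above 97.9% of all bins. The span of cluster 1, of 29 kb, is shorter than these bins, and the 100 kb bin that holds it had 63.47%. The tight and late cluster 4 was above the 90th percentile of tight and late bins, 59.0%, and above the 10th percentile of LoNRD bins, also 59.0%. Its right flank, in the same TiNRD, had 56.6%.

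Other genes of antimicrobial defence and Paneth cells were taken from a list of 29, of which 28 were found. Of these, 19 were tight and early, among them Mmp7 (0.34 and 1.03), Ccr6 (1.13 and 0.67) and Camp, which encodes the cathelicidin (0.87 and 1.41). The 19 genes made up 67.9%, near the 69.4% of all genes, and none was tight and late, where the share of all genes was 7.49%. With only 28 genes, several of which share domains and so measurements, this absence says little. Bpi, Bpifa1 and Bpifb1, among the 19, lay in the domains of cluster 2 (1.00 and 1.43). The lectin genes Reg3a, Reg3b, Reg3g and Reg3d, a cluster on chromosome 6, were loose and late, with values of -1.08 and -0.78. Atoh1, a transcription factor of the secretory lineage (-0.71 and 0.93), Retnlb, a goblet cell product (-0.56 and 0.69), Spag11a and Spag11b were loose and early. Of these, Spag11a and Spag11b lie inside cluster 3. Loose and early genes made up 14.3% of the 28, against 5.33% of all genes, and loose and late genes 14.3%, against 13.5%. Sox9, a transcription factor needed for Paneth cells, was tight (1.49) with no RT call.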

How the data were processed

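The data were 2 domain lists that the authors made from R1 ES cells. Reads were trimmed with cutadapt, aligned to mm10 with Bowtie2, cleared of duplicates and filtered by mapping quality. The NRD value is a score deposited by the authors, the z-score of the balance of longer to shorter H3 fragments in 100 kb bins, smoothed. The RT value is a log2 ratio deposited by the authors, of early to late fractions in 50 kb windows, after quantile normalization. The sources used here do not state how bins were combined into a domain value or which replicates were pooled. Read depth behind each domain is unknown, so no interval was given, and no test was made.

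Genes came from GENCODE release M21 and, as an alternative, RefSeq GRCm38.p6. The build was checked by chromosome lengths, which the end of the RT list matched for 20 of 21 chromosomes of GRCm38. Genes were called by the midpoint, spans and flanks of 500 kb by base pairs. A 50-mer counted as single-position if it occurred once in 65 sequences of the primary assembly, on either strand. The background was every 50th bin of 100 kb, with at least 50% assembled. Promoters were aligned with Biopython 1.88. Other software was Python 3.11.15, numpy 2.4.6, numba 0.67.0 and matplotlib 3.10.9. Gene calls, k-mer counts and identities were tested on simulated data.

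The members and lists were chosen with earlier results of these data known. Named in the text were, in each cluster, the first, last and lowest-numbered gene, every gene of a cluster of 3 or fewer, the first and last gene of each run of genes with the same calls, the nearest protein-coding gene on each side and, in the list of other genes, those that were loose or late and Mmp7, Ccr6 and Camp. Other genes named were chosen after their values were seen. Alternatives were other ways to assign, count and choose genes, other domain, gap and flank lengths, A/T content outside repeats, and 100-mers. Protein sequences were not analysed here, nor were the other libraries of the series.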

Additional observations from a re-analysis of the deposited data

How the results depend on the processing

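Over 21 results, 68 alternatives were computed, and 48 stayed within 1.5 times the reported value. These took in the number of clusters, the shares of spans and flanks, A/T content outside repeats and 100-mers of the spans. Assigning genes by transcription start or by most of their length, adding pseudogenes, counting 1 gene for each 100 kb bin and leaving out members with no call moved none of the 4 counts by more than that.

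With domains of at least 500 kb, 3.12% of members were loose and 0% loose and late (18.7% and 12.6% of all genes). With domains at or above the median absolute value, 3.12% were loose, 0% late, 0% loose and late, and 0% tight and late (13.7%, 11.8%, 7.02% and 2.00% of all genes). Counting each cluster once by its majority gave 40.0% loose, 20.0% late, 0% loose and late, and 20.0% tight and late, with cluster 3 tied between early and late.

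The other alternatives were chosen after seeing the data, as was the count of tight and late genes. Beta-defensin genes alone were 28.6% loose, 40.5% late, 16.7% loose and late, and 23.8% tight and late. Without cluster 4, the values were 37.5%, 21.9%, 21.9% and 0%. Leaving out genes in bins with under 50% of single-position 50-mers gave 25.6% tight and late. RefSeq genes kept all 4 counts within 1.5 times. In alpha-defensin gene bodies the median share of single-position 100-mers was 28.07%, where that of 50-mers was 12.66%.

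No paired analysis was possible because the results come from no test and the domain lists used here name no replicate. Tracks for each replicate were not analysed here. The planned comparison of protein sequences was not run. Unknown depth, the use of 1 domain list for each measurement and repeated sequence limit how firmly the calls in cluster 4 can be read.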
